A study of Mus musculus with 9 samples.

Results

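Expression of 10 genes of the interleukin-4 (IL-4) and interleukin-10 (IL-10) responses was examined in sorted mouse lung macrophages. The genes were listed by name, by a rule that used no measured value but was written with earlier results of these data known, and all 10 were found among the 24346 gene symbols of the series. They were Il4ra, Il13ra1 and Stat6 of IL-4 signalling, Retnla, Mgl2 and Clec10a as its targets and markers, Il10, its receptor genes Il10ra and Il10rb, and the inhibitor Socs1. The 9 samples came from female C57BL/6 mice at postnatal week 10, with 3 samples in each of 3 groups. Tumor-bearing mice had received Lewis lung carcinoma (LLC) cells carrying the red fluorescent protein tdTomato, in Matrigel, in the left lung, and control mice had received vehicle. Alveolar macrophages (AMs), the resident macrophages of the air spaces, were sorted as CD45+ autofluorescent Siglec-F+ cells from control mice (Ctrl-AM) and from tumor-bearing mice (Tumor-AM). Tumor-associated macrophages (TAMs) of tumor-bearing mice, called Tumor-macrophage, were the Siglec-F- F4/80+ CD11b+ cells among the autofluorescent ones. LLC is 1 established cell line, control and tumor-bearing mice were bred separately, and the lungs were digested without perfusion, so that the breeding of the mice and the tumor cannot be told apart in comparisons with Ctrl-AM. Whether a Tumor-AM and a Tumor-macrophage sample came from the same mouse was not stated.

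IL-4 binds a receptor whose chain is encoded by Il4ra, paired with either the common gamma chain (Il2rg) or the IL-13 receptor chain Il13ra1, and the receptor activates the transcription factor STAT6. STAT6 is known to raise genes of alternatively activated macrophages, among them Retnla, a secreted resistin-like protein, and the C-type lectins Mgl2 (CD301b) and Clec10a (CD301a), which bind galactose-type sugars. IL-10 binds IL10RA and IL10RB, acts mainly through STAT3 and dampens inflammatory gene expression, and SOCS1 is an inhibitor of JAK kinases that cytokines themselves induce.

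RefSeq promoter sequences of the assembly GRCm38.p6, from 250 bases before to 50 bases after the start, were matched for 6 of the 10 genes, namely Retnla, Mgl2, Il4ra, Il13ra1, Stat6 and Socs1. They were searched for the spaced palindrome TTCNNNNGAA, the form STAT6 prefers, for TTCNNNGAA, the general STAT form, and for GAAANNGAAA, a core form of elements bound by interferon regulatory factors, on both strands. The last motif was added after the sequences had been seen. Retnla, Mgl2 and Socs1 are shown because these are the 3 genes of the 6 with the largest differences between Tumor-macrophage and Tumor-AM, with any match in capitals. They lie at chr16:48842359-48842658 (+ strand), chr11:70130107-70130406 (+ strand) and chr16:10785487-10785786 (- strand).

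Retnla: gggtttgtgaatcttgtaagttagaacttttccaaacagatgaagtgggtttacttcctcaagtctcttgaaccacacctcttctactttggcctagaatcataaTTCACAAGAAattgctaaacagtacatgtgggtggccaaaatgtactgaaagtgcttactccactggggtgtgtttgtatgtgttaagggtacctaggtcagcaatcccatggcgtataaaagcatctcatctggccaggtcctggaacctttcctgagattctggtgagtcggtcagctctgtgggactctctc

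Mgl2: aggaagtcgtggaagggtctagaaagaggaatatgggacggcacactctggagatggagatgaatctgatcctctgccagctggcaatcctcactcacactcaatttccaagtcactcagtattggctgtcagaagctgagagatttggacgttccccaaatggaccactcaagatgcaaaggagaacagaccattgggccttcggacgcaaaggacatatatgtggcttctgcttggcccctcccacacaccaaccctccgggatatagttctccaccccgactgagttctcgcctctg

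Socs1: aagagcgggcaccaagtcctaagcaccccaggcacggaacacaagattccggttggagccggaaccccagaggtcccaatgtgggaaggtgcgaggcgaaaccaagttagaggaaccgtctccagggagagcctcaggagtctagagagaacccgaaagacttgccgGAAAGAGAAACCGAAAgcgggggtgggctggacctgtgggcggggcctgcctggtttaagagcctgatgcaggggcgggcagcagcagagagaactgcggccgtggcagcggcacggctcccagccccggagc

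The capitals in the Retnla promoter are a match to TTCNNNNGAA that begins 145 bases before the start, a motif held by 6.95% of 32851 promoters of the same length. The capitals in the Socs1 promoter are 2 overlapping matches to GAAANNGAAA, beginning 83 and 77 bases before the start, a motif held by 3.44% of promoters. No match to any of the 3 motifs was present in the windows of Mgl2, Il4ra, Il13ra1 and Stat6, and TTCNNNGAA, held by 8.3% of promoters, matched none of the 6. These matches describe letters only, and binding was not measured.

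Levels are given as FPKM, read counts divided by transcript length and by library size, a scale on which levels of different genes can be set side by side. Estimated depth was 10200000 to 12800000 reads per sample, and 10686 genes with at least 1 FPKM in at least 3 samples were tested together on log2(FPKM + 1) with limma. Log2 changes below are on that scale, which understates changes of low genes, and are given ± SE with Benjamini-Hochberg adjusted p over all 10686 genes. The sorted populations carried the RNA of the sorted marker, with Siglecf at 164 to 209 FPKM in the 6 AM samples and 0.456 to 0.835 in Tumor-macrophage. Summed FPKM of 10 monocyte-derived macrophage markers were 250 to 282 for Ctrl-AM, 305 to 392 for Tumor-AM and 14600 to 15300 for Tumor-macrophage. Other cell types left traces that moved with the groups. The sum of 5 B cell markers was 12.7 to 16.9 for Ctrl-AM, 3.15 to 7.49 for Tumor-AM and 31.5 to 58.3 for Tumor-macrophage, and the sum of 8 dendritic cell markers was 16.2 to 19.1, 7.87 to 15.5 and 29.7 to 61.3, with none of the 8 at 0. The sum of 6 fibroblast markers was 3.24 to 6.4 in Ctrl-AM and higher without overlap in Tumor-AM, at 8.03 to 50.6. The top value was in Tumor-AM 3 (Dcn 25.7 and Col3a1 21 FPKM). Dcn, Col3a1 and Pdgfrb were higher in Tumor-AM without overlap, whereas Col1a1, Col1a2 and Pdgfra overlapped. Col1a1 was at 0.308 to 0.906 FPKM for Ctrl-AM and 0 to 1.37 for Tumor-AM. The part of fibroblasts in the genes higher in Tumor-AM was not tested. Eosinophil peroxidase (Epx) was listed at 0 in all 9 samples. Other eosinophil markers had low values in Tumor-macrophage, with Prg2 up to 1.14, Ccr3 up to 0.457, Il5ra up to 0.295 and Alox15 up to 1.6 FPKM.

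Between Tumor-macrophage and Tumor-AM, 8 of the 10 genes were higher in Tumor-macrophage and Il13ra1 was lower, while Stat6 was not past the threshold. Over the whole table, 24.2% of genes passed as higher and 24.4% as lower here, and the values of the groups did not overlap for 9 of the 10 genes and 55.3% of all genes. Against Ctrl-AM the same 8 genes were higher in Tumor-macrophage and Il13ra1 was lower, beside 27.7% of all genes higher and 27.1% lower, with no overlap for 9 of the 10 and 62.3% of all genes. Both comparisons share the Tumor-macrophage samples. Clec10a and Il10 reached 1 FPKM in Tumor-macrophage alone, and Socs1 passed the filter on low values only with the help of that group, so that these 3 could hardly fail to differ. Among the other 7 genes, 5 were higher and 1 lower in each of these comparisons. The median log2 change of these 7 was 0.5 against Tumor-AM and 0.61 against Ctrl-AM, while that of all genes was 0.0012 and -0.0082.

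Between Tumor-AM and Ctrl-AM, Il4ra and Il10rb were higher in Tumor-AM and Retnla and Mgl2 were lower, 2 genes in each direction, beside 7.11% of all genes higher and 3.18% lower. The groups did not overlap for 6 of the 10 genes and for 32.3% of all genes. The median log2 change was 0.04 for the 10 genes and 0.014 for all genes. These 4 calls were sensitive to the processing: 2 remained after rescaling to TPM (equal sums in every sample), both of them lower, and the same count and direction held after quantile normalization. Over all genes, TPM gave 475 higher and 824 lower in Tumor-AM, and quantile normalization 607 and 446, in place of 760 and 340. Between Tumor-macrophage and Ctrl-AM, TPM gave 2130 higher and 4409 lower in place of 2960 and 2900. TPM moved the median log2 change of all genes by -0.123 (Tumor-AM against Ctrl-AM), -0.0858 (Tumor-macrophage against Tumor-AM) and -0.214 (Tumor-macrophage against Ctrl-AM), to -0.109, -0.0846 and -0.222, so TPM values below are also given relative to these medians.

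**Figure D1:**
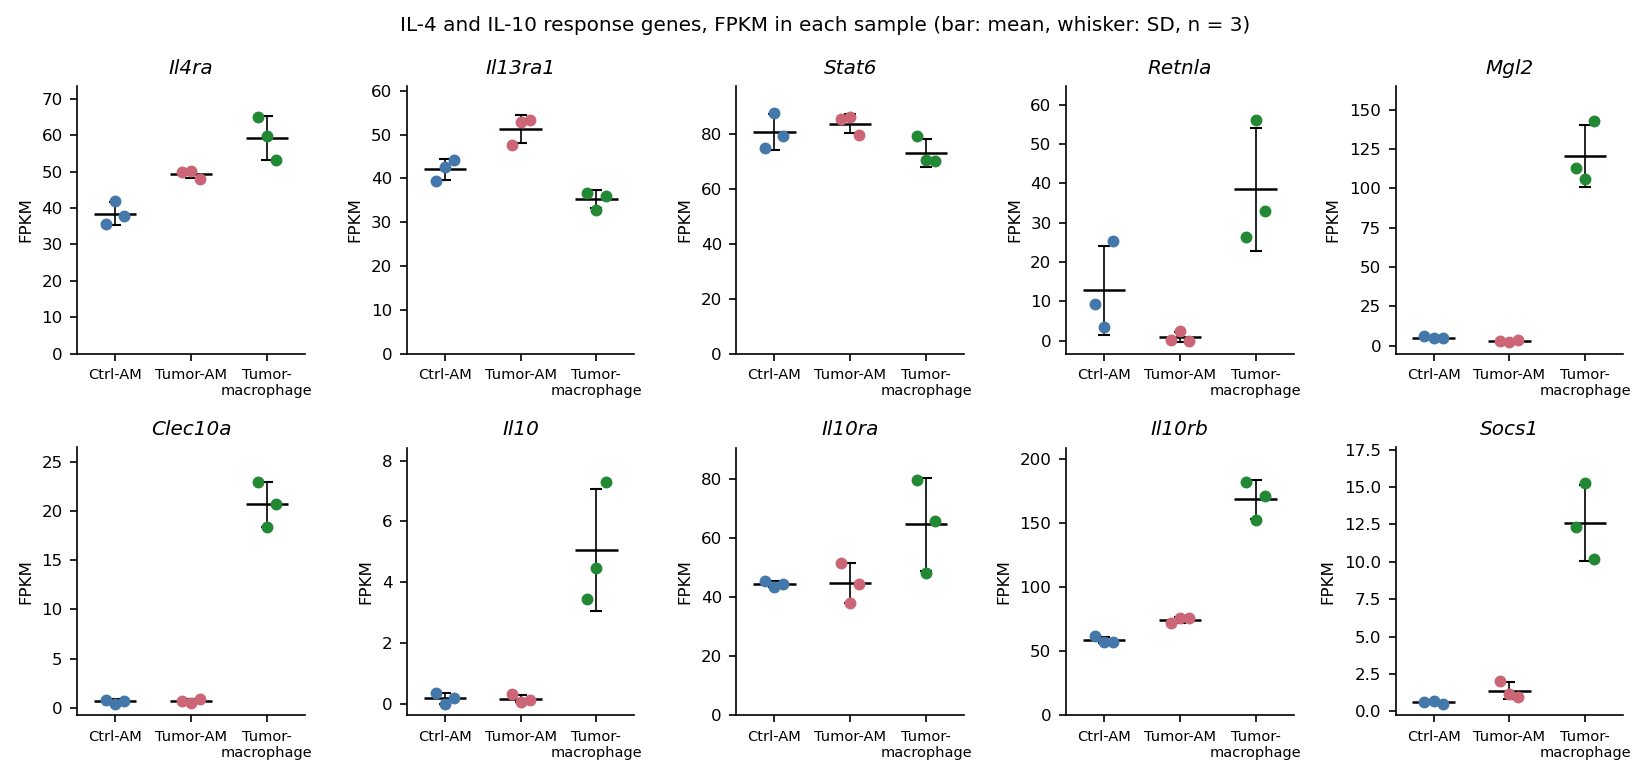
FPKM of the 10 genes in each of the 9 samples, with linear axes in FPKM, points for samples, bars for means and whiskers for SD (n = 3). Mgl2, Clec10a, Il10 and Socs1 lay near the bottom of their axes in all 6 AM samples, whereas Il13ra1 and Stat6 had their lowest means in Tumor-macrophage, 35.2 and 73.2.

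The receptor and transducer genes of IL-4 were expressed at substantial levels in every sample. Il4ra, the chain that binds IL-4, lies at chr7:125552120-125579474 (GRCm38, + strand). Il4ra FPKM were 35.5, 41.8 and 37.9 for Ctrl-AM, 49.8, 50.2 and 48.1 for Tumor-AM and 65.1, 59.8 and 53.1 for Tumor-macrophage. The groups did not overlap, and Il4ra stood lowest in Ctrl-AM and highest in Tumor-macrophage. Il4ra exceeded its Ctrl-AM level in Tumor-AM by 0.36 ± 0.091 (limma, adjusted p = 0.0332), and was higher in Tumor-macrophage by 0.26 ± 0.091 against Tumor-AM (adjusted p = 0.0379) and by 0.61 ± 0.091 against Ctrl-AM (adjusted p = 0.000192). The difference from Ctrl-AM to Tumor-macrophage passed the threshold under all 18 alternatives tried. The step from Ctrl-AM to Tumor-AM missed it under 9 of 18, including TPM (0.22, or 0.33 relative to the median, adjusted p = 0.164) and the omission of Ctrl-AM 1, Ctrl-AM 3 or any 1 Tumor-AM sample (0.30 to 0.38, adjusted p 0.0716 to 0.132). The step from Tumor-AM to Tumor-macrophage missed it under 10 of 18, including TPM (0.16, or 0.25 relative to the median, adjusted p = 0.202) and the omission of Ctrl-AM 3, any 1 Tumor-AM sample, Tumor-macrophage 1 or Tumor-macrophage 2 (0.19 to 0.27, adjusted p 0.055 to 0.13).

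Il13ra1, the chain that joins IL4RA in the receptor shared by IL-4 and IL-13, lies at chrX:36112110-36171259 (+ strand). Its FPKM were 39.4, 42.7 and 44.2 for Ctrl-AM, 47.7, 52.9 and 53.4 for Tumor-AM and 36.7, 32.9 and 36.1 for Tumor-macrophage. Unlike Il4ra, it was lowest in Tumor-macrophage, and again the groups did not overlap. The Tumor-macrophage level was below that of Tumor-AM by a log2 change of -0.53 ± 0.08 (limma, adjusted p = 0.000273), a call kept under all 18 alternatives, and lower than in Ctrl-AM by -0.25 ± 0.08 (adjusted p = 0.0221). The latter call was lost without Ctrl-AM 2, Ctrl-AM 3 or Tumor-macrophage 2 (-0.24 to -0.20, adjusted p 0.066 to 0.0846). The log2 change of 0.28 ± 0.08 from Ctrl-AM to Tumor-AM missed the threshold (adjusted p = 0.0529) and passed it without Tumor-macrophage 2 (adjusted p = 0.0419) or with a filter of 5 FPKM (adjusted p = 0.043).

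The balance of the 2 chains was compared within each sample, where library scaling cancels. The ratio of Il4ra to Il13ra1 FPKM was 0.901, 0.978 and 0.858 for Ctrl-AM, 1.04, 0.949 and 0.9 for Tumor-AM and 1.78, 1.82 and 1.47 for Tumor-macrophage. The AM groups overlapped (exact permutation test, two-sided, p = 0.5), while every Tumor-macrophage ratio lay above every AM ratio (exact permutation p = 0.1, the smallest that 3 samples against 3 allow).

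Stat6, the transcription factor downstream of the receptor, lies at chr10:127642986-127660957 (+ strand) and overlaps Nab2, listed at 9.65 to 15.3 FPKM. Since the use of strand in counting was not stated, reads from the shared stretch cannot be told apart. Stat6 was the highest of the 10 genes in all 3 Ctrl-AM samples and in all 3 Tumor-AM samples, with FPKM of 74.7, 87.6 and 79.4 in Ctrl-AM and 85.3, 86.2 and 79.7 across Tumor-AM. In Tumor-macrophage its FPKM were 79.1, 70.4 and 70.1, which overlapped Ctrl-AM and lay just under Tumor-AM. No difference passed the threshold, with log2 changes of 0.057 from Ctrl-AM to Tumor-AM (95% interval -0.12 to 0.24, limma adjusted p = 0.726), -0.19 from Tumor-AM to Tumor-macrophage (-0.37 to -0.012, adjusted p = 0.0748) and -0.14 from Ctrl-AM to Tumor-macrophage (-0.32 to 0.045, adjusted p = 0.183). Stat6 passed as lower in Tumor-macrophage against Tumor-AM after the omission of Tumor-macrophage 1 (-0.25, adjusted p = 0.0381) and under TPM (-0.29, adjusted p = 0.0166), which also gave -0.37 against Ctrl-AM (adjusted p = 0.00339). Relative to the medians of all genes under TPM, these Stat6 changes were -0.20 and -0.15. The ratio of Il4ra to Stat6 was 0.475, 0.477 and 0.477 for Ctrl-AM, 0.584, 0.582 and 0.603 for Tumor-AM and 0.823, 0.849 and 0.757 for Tumor-macrophage. The 3 groups of ratios did not overlap (exact permutation p = 0.1 for each pair).

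**Figure D2:**
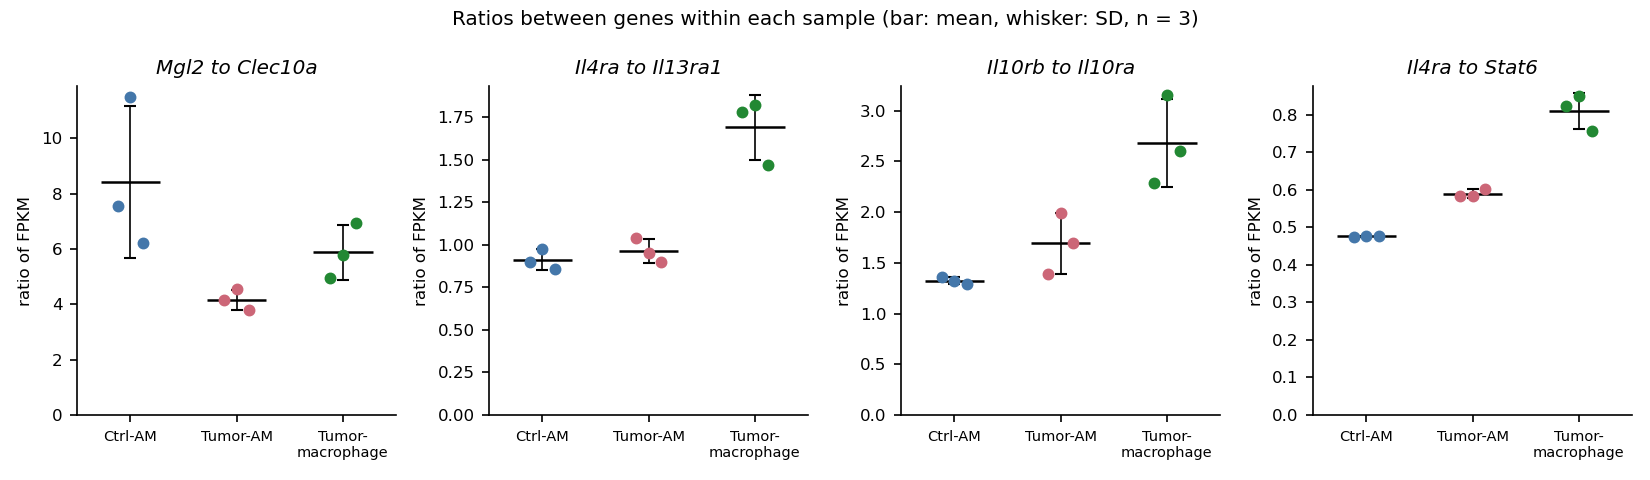
Ratios of FPKM between 2 genes of the same sample for the 9 samples, with points for samples, bars for means and whiskers for SD (n = 3), each axis starting at 0. The ratios of Il4ra to Il13ra1, Il10rb to Il10ra and Il4ra to Stat6 had their highest values in Tumor-macrophage (means 1.69, 2.68 and 0.81), whereas Mgl2 to Clec10a was highest in Ctrl-AM (mean 8.44).

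The 3 targets and markers of IL-4 all had their highest means in Tumor-macrophage, by a wide margin for Mgl2 and Clec10a and by a 3.01-fold ratio over Ctrl-AM for Retnla. Retnla, the resistin-like gene, lies at chr16:48842551-48844461 (+ strand, 4 exons). Its FPKM were 9.39, 3.48 and 25.4 for Ctrl-AM, 0.222, 2.45 and 0 for Tumor-AM and 26.3, 56.1 and 33.1 for Tumor-macrophage. The spacing of the low values puts these at an estimated 45, 19 and 139 reads for Ctrl-AM, 1, 12 and 0 for Tumor-AM and 114, 250 and 161 for Tumor-macrophage. The value of 0 in Tumor-AM 3 allows up to 0.562 FPKM, the worth of 3 reads, a bound that covers counting error only. Retnla spread widely within each group, with an SD of 11.4 around a Ctrl-AM mean of 12.8, 1.36 around a Tumor-AM mean of 0.892 and 15.6 around a Tumor-macrophage mean of 38.5 FPKM, and yet the groups did not overlap.

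Retnla had a lower level in Tumor-AM, by a log2 change of -2.73 ± 0.62 against Ctrl-AM (limma, adjusted p = 0.0207). This call was lost without a filter on low values (adjusted p = 0.0685) and without Ctrl-AM 1, Ctrl-AM 3, Tumor-AM 1 or Tumor-AM 3 (-2.75 to -2.08, adjusted p 0.0647 to 0.0729). It was higher in Tumor-macrophage by 4.54 ± 0.62 against Tumor-AM (adjusted p = 0.000126), which held under all 18 alternatives. The excess of Tumor-macrophage over Ctrl-AM, 1.81 ± 0.62 (adjusted p = 0.029), was lost under 7 of 18, among them TPM (1.62, or 1.84 relative to the median, adjusted p = 0.0568), a pseudocount of 0.1 (1.94, adjusted p = 0.139) and the omission of Ctrl-AM 1, Ctrl-AM 2, Tumor-macrophage 2 or Tumor-macrophage 3 (1.18 to 1.88, adjusted p 0.0579 to 0.108). The summed level of 10 epithelial markers overlapped between AM groups at 58.3 to 210 FPKM for Ctrl-AM and 46.1 to 103 for Tumor-AM. The B cell and dendritic cell sums given above were lower in Tumor-AM without overlap. In the dendritic cell list, Cd209a alone separated the AM groups. The neutrophil gene S100a9 was lower in Tumor-AM, at 20.4, 23.5 and 32.2 FPKM for Ctrl-AM and 3.28, 7.64 and 9.99 for Tumor-AM. Another neutrophil gene, S100a8, was higher, at 71.7 to 81.4 FPKM for Ctrl-AM and 86 to 144 for Tumor-AM. The sum of 6 neutrophil markers overlapped, at 146 to 173 for Ctrl-AM and 150 to 214 for Tumor-AM. The part of such cells in the Retnla values was not tested.

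Mgl2 and Clec10a are neighbouring paralogs on chromosome 11, at chr11:70130329-70137550 and chr11:70156197-70170834 (both + strand). Their longest transcripts share 145 windows of 75 bases, the read length, which are 9.29% of Mgl2 windows and 6.42% of Clec10a windows, and how such reads were assigned was not stated. Mgl2 FPKM were 6.19, 4.47 and 4.47 for Ctrl-AM, 2.77, 1.96 and 3.43 for Tumor-AM and 113, 106 and 143 for Tumor-macrophage. All Tumor-AM values lay below all Ctrl-AM values, and Tumor-macrophage was far above both. Mgl2 in Tumor-AM differed from its Ctrl-AM level by a log2 change of -0.71 ± 0.17 (limma, adjusted p = 0.0294), with means of 2.72 ± 0.734 and 5.04 ± 0.993 FPKM (SD, n = 3). Compared with Tumor-AM it was higher in Tumor-macrophage by 5.04 ± 0.17 (adjusted p = 4.31e-09), a 44.4-fold ratio of mean FPKM and the largest log2 change of the 10 genes with a pseudocount of 1, and compared with Ctrl-AM by 4.33 ± 0.17 (adjusted p = 9.4e-09), a 24-fold ratio. Both calls for Tumor-macrophage held under all 18 alternatives. The lower level in Tumor-AM was past the threshold under 12 of 18 and was lost without a filter (adjusted p = 0.076) and without any 1 of Ctrl-AM 1, 2 and 3 and Tumor-AM 1 and 2 (-0.77 to -0.55, adjusted p 0.0525 to 0.112).

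The dendritic cell marker Cd209a moved with Mgl2, at 7.21, 4.25 and 4.25 FPKM for Ctrl-AM, 1.29, 1 and 2.12 for Tumor-AM and 16.9, 6.92 and 14.2 for Tumor-macrophage. All other markers of the dendritic cell list overlapped between the AM groups. Ccr7, for example, was at 7.31 to 9.45 FPKM for Ctrl-AM and 4.74 to 10.3 for Tumor-AM. The B cell marker Cd79a, like Cd209a, was lower in Tumor-AM, at 1.57 to 3.59 FPKM against 5.67 to 9.12 in Ctrl-AM. The part of such cells in the Mgl2 values was not tested, and in these bulk samples fewer cells of a type cannot be told apart from less RNA per cell.

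Clec10a FPKM were 0.82, 0.387 and 0.718 for Ctrl-AM, 0.67, 0.432 and 0.905 for Tumor-AM and 22.9, 18.4 and 20.7 for Tumor-macrophage. The AM values overlapped fully and rested on an estimated 7 to 16 reads per sample, against 271 to 333 in Tumor-macrophage. Its log2 change from Ctrl-AM to Tumor-AM was 0.024 (95% interval -0.32 to 0.37, limma adjusted p = 0.951), and a difference between AM groups was not detectable at this depth. It was higher in Tumor-macrophage by 3.7 ± 0.16 against Tumor-AM (adjusted p = 1.81e-08) and 3.72 ± 0.16 against Ctrl-AM (adjusted p = 1.23e-08), or 30.8-fold and 32.2-fold as ratios of mean FPKM. The Mgl2 level exceeded that of Clec10a in every sample, by a factor of 7.54, 11.5 and 6.23 for Ctrl-AM, 4.14, 4.54 and 3.79 for Tumor-AM and 4.94, 5.77 and 6.93 for Tumor-macrophage. This ratio was lower in all Tumor-AM samples than in any Ctrl-AM or Tumor-macrophage sample (exact permutation p = 0.1 for each), and Ctrl-AM and Tumor-macrophage overlapped (exact permutation p = 0.2).

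Il10, the cytokine itself, lies at chr1:131019845-131024974 (+ strand, 5 exons). Its FPKM were 0.371, 0 and 0.195 for Ctrl-AM, 0.315, 0.0726 and 0.133 for Tumor-AM and 3.44, 4.46 and 7.3 for Tumor-macrophage. The AM values stand for an estimated 0 to 5 reads per sample, and the Tumor-macrophage values for 42, 56 and 100 reads. AM groups overlapped, with a log2 change of -0.012 (95% interval -0.51 to 0.48, limma adjusted p = 0.984), and a difference between them was not detectable at this depth. Il10 was higher in Tumor-macrophage by 2.32 ± 0.22 against Tumor-AM (adjusted p = 8.59e-06) and by 2.31 ± 0.22 against Ctrl-AM (adjusted p = 7.28e-06). It remained the lowest of the 10 genes in Tumor-macrophage, with a mean of 5.06 ± 2 FPKM (SD, n = 3). The sum of B cell markers given above was also higher there. The T cell gene Cd3g had its highest mean there but overlapped the AMs (3.01 to 6.19 FPKM in Tumor-macrophage, 1.05 to 3.67 in AMs). The sum of the 10 T cell, NK cell and innate lymphoid cell markers was lower, at 37.6 to 63.9 FPKM against 411 to 525 in AMs. Most of the AM sum was Cd2, at 9.53 to 26 FPKM in Tumor-macrophage and 399 to 516 in AMs. Rora was also lower without overlap, at 0.746 to 2.05 against 2.83 to 4.17 FPKM. Cd3d (1.95 to 4.64 against 0.435 to 1.63 FPKM) and Il7r (15.7 to 18.9 against 0.642 to 2.41) were higher without overlap. The other markers of this list overlapped. The part of lymphocytes in the Il10 values was not tested.

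Il10ra, the chain that binds IL-10, lies at chr9:45253837-45269149 (- strand). Its FPKM were 45.4, 43.5 and 44.3 for Ctrl-AM, 51.6, 38.1 and 44.4 for Tumor-AM and 79.7, 48.3 and 65.8 for Tumor-macrophage. It had nearly the same mean in both AM groups, 44.4 and 44.7 FPKM (log2 change -0.0017, 95% interval -0.36 to 0.36, limma adjusted p = 0.996). Tumor-macrophage 2 fell inside the Tumor-AM range, and Il10ra was the single gene of the 10 whose difference between Tumor-macrophage and Tumor-AM passed the threshold with overlapping groups (0.5 ± 0.16, adjusted p = 0.0257). That call was lost under 7 of 18 alternatives, including TPM (0.41, or 0.49 relative to the median, adjusted p = 0.0591) and the omission of Tumor-AM 2, Tumor-AM 3, Tumor-macrophage 1 or Tumor-macrophage 3 (0.34 to 0.5, adjusted p 0.0575 to 0.0924). The excess over Ctrl-AM (0.5 ± 0.16, adjusted p = 0.0233) was lost under 6 of 18, including TPM (0.27, or 0.49 relative to the median, adjusted p = 0.173) and the omission of Ctrl-AM 2, Ctrl-AM 3, Tumor-macrophage 1 or Tumor-macrophage 3 (0.34 to 0.5, adjusted p 0.0557 to 0.0857).

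Il10rb, the second chain, which also serves receptors of other IL-10 family cytokines, lies at chr16:91406164-91425834 (+ strand). Of the 75-base windows of its longest transcript, 28% also occur in the overlapping annotated gene Gm21970. Gm21970 is not among the gene symbols of the series, and how reads from these windows were counted was not stated. Il10rb FPKM were 61.7, 57.3 and 57 for Ctrl-AM, 71.8, 75.8 and 75.4 for Tumor-AM and 182, 152 and 171 for Tumor-macrophage. The 3 groups were well separated, and in every Tumor-macrophage sample it was the highest of the 10 genes. Il10rb exceeded its Ctrl-AM level in Tumor-AM by 0.34 ± 0.078 (limma, adjusted p = 0.0232), and was higher in Tumor-macrophage by 1.17 ± 0.078 against Tumor-AM (adjusted p = 5.49e-07) and by 1.5 ± 0.078 against Ctrl-AM (adjusted p = 5.95e-08). Both Tumor-macrophage calls held under all 18 alternatives. The first call held under 11 of 18 and was lost under TPM (0.2, or 0.31 relative to the median, adjusted p = 0.103), quantile normalization (0.29, adjusted p = 0.0546) and a constant prior variance (adjusted p = 0.0529), and without Ctrl-AM 2, Ctrl-AM 3, Tumor-AM 2 or Tumor-AM 3 (0.32 to 0.33, adjusted p 0.0618 to 0.0923). Within samples, the ratio of Il10rb to Il10ra was 1.36, 1.32 and 1.29 for Ctrl-AM, 1.39, 1.99 and 1.7 for Tumor-AM and 2.29, 3.15 and 2.6 for Tumor-macrophage. The 3 groups of ratios stood in that order without overlap (exact permutation p = 0.1 for each pair), though Tumor-AM 1 lay close to the Ctrl-AM range.

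Socs1, which encodes the JAK inhibitor, lies at chr16:10782240-10785536 (- strand). Its FPKM were 0.644, 0.706 and 0.494 for Ctrl-AM, 2.05, 1.18 and 0.938 for Tumor-AM and 12.3, 15.3 and 10.2 for Tumor-macrophage. An estimated 7 to 10 reads lay behind the Ctrl-AM values, 13 to 24 behind Tumor-AM and 129 to 177 behind Tumor-macrophage. The groups did not overlap. The log2 change of 0.54 ± 0.19 from Ctrl-AM to Tumor-AM, a 2.26-fold ratio of mean FPKM, missed the threshold (limma, adjusted p = 0.104), and did so under all 18 alternatives. Socs1 was higher in Tumor-macrophage by 2.52 ± 0.19 against Tumor-AM (adjusted p = 1.33e-06), a 9.06-fold ratio, and by 3.06 ± 0.19 against Ctrl-AM (adjusted p = 2.26e-07), a 20.5-fold ratio.

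**Figure D3:**
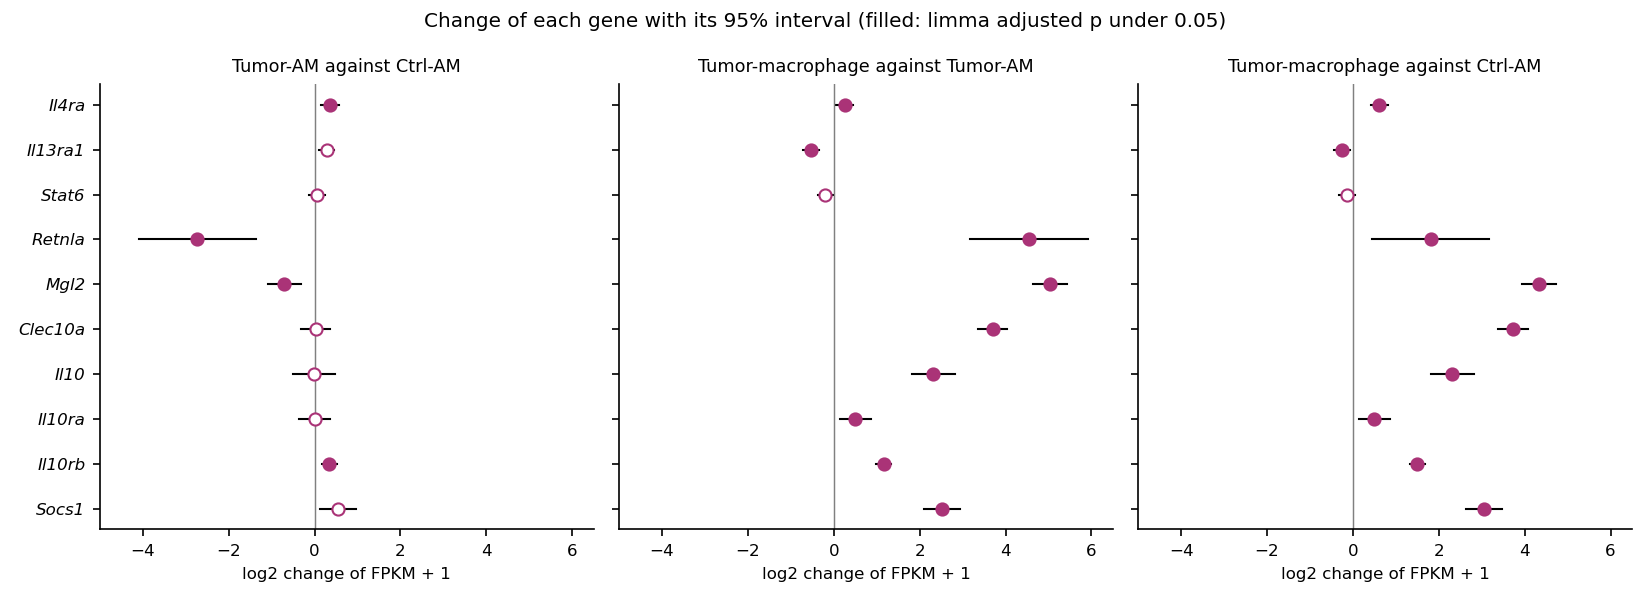
Log2 change of FPKM + 1 of the 10 genes in the 3 comparisons, with lines for 95% intervals and filled points for limma adjusted p under 0.05. The targets Retnla and Mgl2 lay left of 0 in Tumor-AM against Ctrl-AM (-2.73 and -0.71) and right of 0 in both Tumor-macrophage comparisons, where Il13ra1 was the called gene on the left (-0.53 and -0.25).

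The order of the 10 levels on the FPKM scale differed between the populations. In Ctrl-AM the means ran from Stat6 (80.6) through Il10rb (58.7), Il10ra (44.4), Il13ra1 (42.1), Il4ra (38.4), Retnla (12.8), Mgl2 (5.04), Clec10a (0.642) and Socs1 (0.615) to Il10 (0.189). The sample ranges of Il10ra and Il13ra1, of Il13ra1 and Il4ra, of Retnla and Mgl2, and of Clec10a and Socs1 overlapped, so the order inside these pairs was not resolved. In Tumor-macrophage the order was Il10rb (169), Mgl2 (121), Stat6 (73.2), Il10ra (64.6), Il4ra (59.3), Retnla (38.5), Il13ra1 (35.2), Clec10a (20.6), Socs1 (12.6) and Il10 (5.06), and the ranges of Stat6 and Il10ra, of Il10ra and Il4ra, of Il4ra and Retnla, and of Retnla and Il13ra1 overlapped. Mgl2 moved from percentile 58.9 of genes above 0 in Ctrl-AM to percentile 48.3 in Tumor-AM and 94.9 in Tumor-macrophage, while Stat6 was between percentiles 92 and 93.1 in the 3 groups.

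The other genes of these pathways were taken from 8 lists of 67 genes, of which 66 were in the data, 43 passed the filter and 7 were listed at 0 in all samples (Il13, Il20, Il22, Il22ra1, Retnlb, Asgr1 and Clec4f). Il4 was listed at 0 in 8 samples and at 0.232 FPKM in Tumor-macrophage 2. In Tumor-AM against Ctrl-AM, 9 of the 43 were higher and 1 lower (4 and 2 under TPM), and their median log2 change was 0.06, beside 7.11% of all genes higher and 3.18% lower. Against Tumor-AM, 18 were higher and 13 lower in Tumor-macrophage (median 0.3), and against Ctrl-AM 19 were higher and 11 lower (median 0.3). The shares of all genes were 24.2% higher and 24.4% lower in the former comparison and 27.7% and 27.1% in the latter.

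Among the signalling partners of the IL-4 and IL-13 receptors, 0 of 7 passed the threshold between the AM groups. Over all genes, 7.11% passed as higher in Tumor-AM and 3.18% as lower. The AM groups did not overlap for 5 of the 7 and for 32.3% of all genes. The median log2 change of the 7 was 0.31, beside 0.014 for all genes, and Il2rg missed narrowly (0.31, limma adjusted p = 0.0511). In Tumor-macrophage against Tumor-AM, 4 were higher, namely the common gamma chain Il2rg (2.42, from 111 to 138 FPKM up to 614 to 672), the kinases Jak3 (0.88) and Jak2 (0.86) and the phosphatase Ptpn6 (0.31). The adaptor Irs2 was lower (-0.61). Of all genes, 24.2% were higher and 24.4% lower in this comparison. The higher Il2rg stood beside the higher Il4ra and the lower Il13ra1 described above.

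IL-4 and STAT6 target genes did not follow Mgl2, Clec10a and Retnla in 1 direction. Of 14 tested, Tumor-macrophage had 4 at a higher and 7 at a lower level against Tumor-AM, with a median log2 change of -0.14. Arginase Arg1 (3.81, adjusted p = 0.00049), the elastase Mmp12 (2.15), the ligand Pdcd1lg2 (0.93) and the transcription factor Klf4 (0.3) were higher, whereas the chitinase-like Chil3 (-6.96), the cadherin Cdh1 (-2.9), Flt1 (-2.79), the mannose receptor Mrc1 (-0.95), Cish (-0.76), Egr2 (-0.64) and the transglutaminase Tgm2 (-0.53) were lower. Chil3 is also a marker of AMs and stood in that marker list. The study used Mrc1 as a marker of AMs as well. Arg1 FPKM were 1.8, 1.46 and 1.24 for Ctrl-AM, 4.09, 15.3 and 6.15 for Tumor-AM and 40.8, 325 and 120 for Tumor-macrophage, so that Arg1 did not share the lower Tumor-AM level of Retnla and Mgl2. Its log2 change of 1.76 ± 0.63 between the AM groups missed the threshold (limma, adjusted p = 0.11) although the groups did not overlap. Between the AM groups, 2 of the 14 passed, Tgm2 (0.44) and Klf4 (0.35), both higher in Tumor-AM. The shares of all genes were 7.11% higher and 3.18% lower.

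IL-10 target genes made up 5 of the 9 pathway genes higher in Tumor-AM, a count of 9 that fell to 4 under TPM or without Ctrl-AM 1 or Ctrl-AM 2, and to 5 without Ctrl-AM 3, Tumor-AM 1 or Tumor-AM 3. Of 11 tested, against 7.11% of all genes higher, the NF-kB cofactor Bcl3 (1.22, limma adjusted p = 0.00447), the STAT3 inhibitor Socs3 (1.12, adjusted p = 0.000599), the repressor Nfil3 (0.94, adjusted p = 0.00361), Sbno2 (0.51, adjusted p = 0.0214) and the Fc receptor Fcgr1 (0.38, adjusted p = 0.0445) rose and none fell, with a median log2 change of 0.1. Socs3 FPKM were 4.37, 5.3 and 4.68 for Ctrl-AM, 9.58, 13.4 and 12 for Tumor-AM and 95.7, 87.2 and 80 for Tumor-macrophage. These genes answer to other cytokines as well. Il10 itself rested on an estimated 0 to 5 reads per AM sample, too few to show a difference between the AM groups. The part of IL-10 in these changes was not tested. In Tumor-macrophage against Tumor-AM, 7 of the 11 were higher and 2 lower (24.2% and 24.4% of all genes), the lower ones being Hmox1 and Nfil3.

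Of 5 transcription factors known to act on Il10, Prdm1 (0.77) and Ahr (0.55) were higher in Tumor-AM against Ctrl-AM. Both lay close to the threshold (limma adjusted p = 0.046 and 0.0432), beside 7.11% of all genes higher and 3.18% lower. Ahr was low, at 0.297 to 0.432 FPKM for Ctrl-AM and 0.754 to 1.44 for Tumor-AM. In Tumor-macrophage against Tumor-AM, Maf (2.69) and Ahr (2.01) were higher and Batf (-0.56) was lower. Maf was at 0 to 0.163 FPKM in the 6 AM samples and at 5.47 to 6.62 in Tumor-macrophage, the same division as that of Il10. Maf and Ahr, and Cd163 among the IL-10 targets, like Il10 passed the filter on low values only with the help of Tumor-macrophage, so that they too could hardly fail to differ. The SOCS family relatives of Socs1 split in Tumor-macrophage against Tumor-AM, with Socs3 (2.82) and Socs6 (1.61) higher and Socs2 (-2.6) and Cish lower. For both lists, the shares of all genes in that comparison were 24.2% higher and 24.4% lower. Of the resistin family, Retnlg was lower in Tumor-AM (-1.09, limma adjusted p = 0.0391), at 0.216 to 1.28 against 1.78 to 3.66 FPKM. Retnlg passed the filter on low values only with the help of Ctrl-AM, where it was highest. The call was lost without a filter, with a pseudocount of 0.1 and without any 1 Ctrl-AM sample. Retnlg is also a neutrophil marker, and its part in this difference was not tested. The neutrophil gene S100a9 was lower in Tumor-AM with it, whereas S100a8 was at 71.7 to 81.4 FPKM for Ctrl-AM and 86 to 144 for Tumor-AM, and the sum of 6 neutrophil markers overlapped, at 146 to 173 and 150 to 214.

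**Figure D4:**
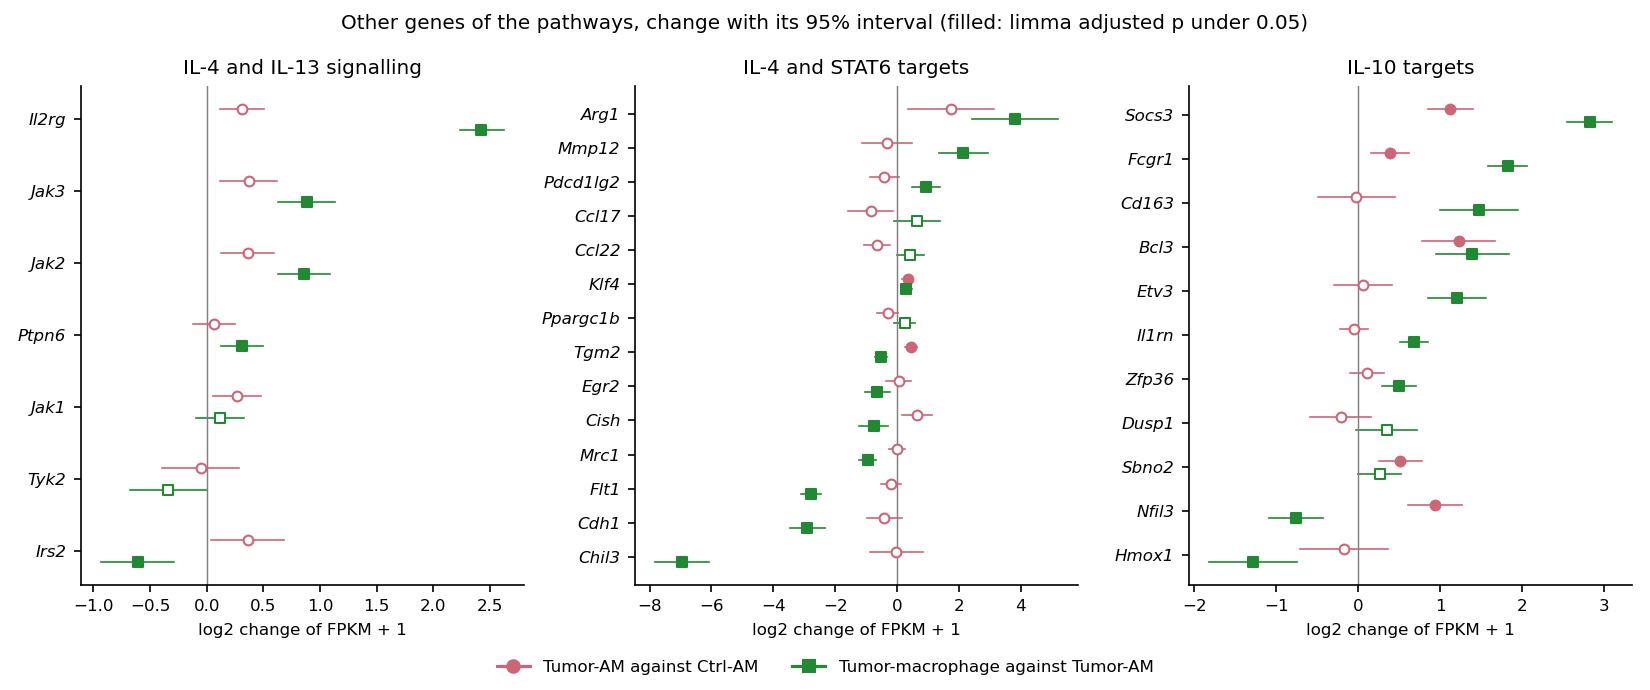
Log2 change of FPKM + 1 of other genes of the pathways, in 3 of the lists, with lines for 95% intervals, circles for Tumor-AM against Ctrl-AM, squares for Tumor-macrophage against Tumor-AM, and filled symbols for limma adjusted p under 0.05. STAT6 targets fell on both sides of 0 in Tumor-macrophage, from Arg1 at 3.81 to Chil3 at -6.96, while the called IL-10 targets in Tumor-AM were all right of 0.

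The genes whose log2(FPKM + 1) over the 9 samples was most like that of a member, by Pearson's r among all 10686 genes, are given as a description, since the 9 points fall into 3 groups. Clec10a was most like the fractalkine receptor Cx3cr1 (r = 0.998), Tmem119 (0.997) and Ptpn22 (0.997), and Cx3cr1 is a marker of monocyte-derived macrophages. For Mgl2 they were Ntpcr (0.998), Rhog (0.995) and Pxdc1 (0.994), for Il10 Eps15 (0.991), Gpr176 (0.99) and Kctd12 (0.988), and for Retnla AI607873 (0.956), Npm1 (0.954) and Pdp1 (0.951). Il4ra, with its graded pattern, was most like Os9 (0.979), Oas1g (0.978) and Tfip11 (0.976). Oas1g, an interferon-induced gene, was at 0.313 to 1.25 FPKM for Ctrl-AM, 4.11 to 6.12 for Tumor-AM and 10.9 to 15.1 for Tumor-macrophage.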

How the data were processed

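RNA sequencing of 9 samples of sorted lung macrophages was analysed. Per the study's methods and the labels, the authors prepared full-length cDNA with SMART-Seq HT, sequenced single-end reads of 75 bases, mapped them to mm10 with TopHat2 2.1.1 and Bowtie2, and deposited FPKM made with Cufflinks (the submitters' processing notes name Cuffdiff 2.2.1). The annotation, strand use, assignment of reads shared by several genes and library scaling were not given in the sources used here. FPKM does not adjust for reads spent on highly abundant transcripts of 1 population.

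Groups followed the labels. Genes with at least 1 FPKM in at least 3 of 9 samples (10686) were fitted on log2(FPKM + 1) in limma 3.58.1 (R 4.3.3), using an intensity trend and all 9 samples sharing 1 estimate of spread. Tests were two-sided, adjusted by Benjamini-Hochberg over all genes tested, with a threshold of 0.05. Ratios were compared by exact permutation tests. The study gives 3 mice for each population. Reads were estimated from the whole-read spacing of low values, positions came from GENCODE vM21, whose symbols matched 95.74% of those in the files, and promoters came from RefSeq. On simulated data with 200 changed genes, made for Tumor-AM against Ctrl-AM over 10686 genes, the fit recovered 84% of 2-fold and 98% of 4-fold changes, and 3.19% of its calls were unchanged genes.

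The 10 genes, the pathway and marker lists and the tests were chosen with earlier results of these data known. Named pathway genes were those past the threshold with the largest changes, up to 6 per list, and those at 0 throughout. A gene of the IL-10 target list is not reported here and was left out of its counts. Arg1 between the AM groups, genes beyond that number, Il4, Cd209a, Ccr7, Cd79a, Cd3g, Cd3d, Il7r, Rora, Cd2 and Nab2 were named after their values were seen. Alternatives were another pseudocount, no or a stricter filter, quantile, TPM and median-ratio scaling, a constant prior variance, a fit of 2 groups, a replicate block and the omission of each sample.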

Additional observations from a re-analysis of the deposited data

How the results depend on the processing

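Of 519 alternative values for the 30 changes of single genes, 443 kept their direction and side of the threshold, 60 lost the call, 5 gained it and 11 changed sign. Most depends on Tumor-AM against Ctrl-AM. There 4 of the 10 genes were past the threshold, and 1 was without a filter, 2 with quantile normalization, 2 with TPM, 2 with a constant prior variance and 0 to 5 with 1 sample left out. The count was 0 without Ctrl-AM 3, 2 without Ctrl-AM 2, and 1 without Ctrl-AM 1 or any 1 Tumor-AM sample. For the other pathway genes the count was 10, with 6 without a filter, 6 with TPM and 4 to 15 with 1 sample left out, the lowest without Ctrl-AM 1 or Ctrl-AM 2. In Tumor-macrophage against Ctrl-AM, 5 to 9 of the 10 passed with 1 sample left out, 5 without Tumor-macrophage 2 or 3, where Il10 and Clec10a no longer met the filter and 8 genes were tested. Against Tumor-AM the count was 6 to 9. The changes of sign all concerned uncalled differences between the AM groups. Clec10a went from 0.024 to -0.038 with quantile normalization, -0.037 with TPM and -0.093 to 0.13 with 1 sample left out, Stat6 to -0.081 with TPM, Il10 to 0.088 with a pseudocount of 0.1 and -0.13 to 0.097 with 1 sample left out, and Il10ra to -0.11 to 0.11 with 1 sample left out. TPM moved the median of all genes by -0.123 in this comparison. The cause of these changes was not tested.

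Samples share the numbers 1 to 3 between groups, but deviations of same-numbered samples correlated at -0.0615 to 0.159 over 9 pairs, with 2 over 0.1, so the numbers were not taken as pairs. With the replicate number as a block, 4, 9 and 9 of the 10 genes and 7, 31 and 30 of the other pathway genes passed in the 3 comparisons, and no single call of the 10 genes changed. Depth limits Clec10a, Il10, Socs1 and Retnla in AMs, where single samples rest on few reads.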

Other observations

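Within Tumor-macrophage, replicate 2 had the highest FPKM of several genes known to answer to IL-4, chosen here after their values were seen. Retnla was at 56.1 FPKM there against 26.3 and 33.1 in the other samples, Arg1 at 325 against 40.8 and 120, Chil3 at 430 against 128 and 150, and the eotaxin Ccl24 at 12.2 against 1.33 and 0.371. It was not highest in Mgl2 (106 against 113 and 143) or Clec10a (18.4 against 22.9 and 20.7), and it was lowest in Il10ra (48.3 against 79.7 and 65.8). Other IL-4 and STAT6 targets went both ways. Replicate 2 was highest in Mrc1 (77.2 against 60.7 and 72) and Pdcd1lg2 (4.77 against 3.53 and 2.57). It was lowest in Ccl17 (8.29 against 15.6 and 17.5), Ccl22 (6.88 against 9.58 and 13.2), Egr2 (28 against 35.2 and 39.2) and Cish (13.2 against 22.7 and 19.4). The same sample had the highest summed mast cell and basophil marker level, 16.3 FPKM against 2.96 and 7.38, and the highest epithelial sum, 89.9 against 42 and 49.5, and the part of such cells in these values was not tested.

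The chemokine genes Ccl17 and Ccl22, which IL-4 is known to induce, were also named after their values were seen. Ccl22 FPKM were 11.5, 9.57 and 13 for Ctrl-AM, 7.6, 6.62 and 6.37 for Tumor-AM and 9.58, 6.88 and 13.2 for Tumor-macrophage. Tumor-AM lay below Ctrl-AM in all samples, but the log2 change of -0.65 ± 0.2 missed the threshold (limma, adjusted p = 0.0627). Ccl17 overlapped between the AM groups (-0.86 ± 0.33, adjusted p = 0.142).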
